A study of Arabidopsis thaliana with 3 samples.

Results

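Expansins are proteins that loosen the plant cell wall without cutting its polymers, so that a cell under turgor can grow. The genes described here are the alpha-expansins (EXPA) and beta-expansins (EXPB) of Arabidopsis thaliana that an Affymetrix ATH1 array could name. A probe set was taken as an expansin when its single gene symbol was EXPA or EXPB followed by a number, which gave 14 of the 22746 probe sets (13350 named genes), and the 10 with the highest signal on any array were kept as members. They are EXPA4, EXPA7, EXPA8, EXPA9, EXPA15, EXPA16, EXPA18, EXPA20, EXPB1 and EXPB3. The last member inside this limit was EXPA20, with a highest signal of 29.5, and the first outside was EXPB2, with 20.2. The water array alone would have given the same 10, whereas the treated arrays alone would have taken EXPB2 in place of EXPA18 and put EXPA7 at place 10. The naming table thus reached 10 EXPA and 4 EXPB genes of the 24 and 6 that the RefSeq gene table lists, and the other expansins were not analysed here.

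Plants of the accession Col-0 were grown for 14 days on a sucrose medium, with a 16-hour photoperiod and 48 hours of cold at 4 C. Whole plants were used once 4 rosette leaves had developed. They were flooded for 1 hour with 1 mM 2,4-dichlorophenoxyacetic acid (2,4-D), dissolved in water and brought to neutral pH, or with distilled water. 2,4-D is a synthetic auxin, used as a herbicide, and the comparison asked what changed at a herbicidal level of it. There were 2 arrays for 2,4-D and 1 for water, and nothing in the labels tells if separate plants or plates gave the treated pair. The p-values below rest only on the spread between those treated arrays, for the probe set itself and for others of like signal. That spread may be technical.

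Auxin lowers the pH of the wall by way of proton pumps, and expansins work best in an acid wall, which ties them to auxin-driven growth. Most members of the family are used in particular organs or cell types. EXPA7 and EXPA18 are the members known for root hairs, the tube-shaped outgrowths of root epidermal cells, where their genes are switched on as the hair forms, and auxin is known to promote the growth of these hairs. The samples were whole plants, so fewer hair cells and less RNA per hair cell cannot be told apart.

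The expansins did not move as one group. EXPA8 fell, EXPA15 and EXPA16 rose, and the other 7 members did not pass the test. Both root-hair members had lower signals with 2,4-D on each treated array, by at least 2-fold, but their signals were dim and neither passed. The beta-expansins EXPB1 and EXPB3 and the alpha-expansins EXPA4, EXPA9 and EXPA20 lay within 2-fold of water on both arrays.

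Signals are MAS5 values on a linear scale, which set each matched probe against its mismatched partner and do not allow levels of different genes to be compared. A signal was called not above background when it was at or below the brightest of 27 dim probe sets for bacterial transcripts, which was 10.7 on 2,4-D replicate 1, 8.37 on 2,4-D replicate 2 and 13.9 on the water array. Changes are log2 differences, 2,4-D minus water, fitted with limma across all 22746 probe sets with no filter on low signal, and a call is a Benjamini-Hochberg adjusted p under 0.05. The fit had 1 residual degree of freedom, with the water array's own spread taken to be that of the treated pair. Over all probe sets 964 were higher and 710 lower, or 57.6% of calls higher, against 72.6% when the arrays were scaled to one median. The median change of all probe sets was -0.14, and -0.02 after that scaling. Spiked hybridisation controls were also dimmer on the treated arrays, with geometric means for bioB of 102 and 79.8 with 2,4-D and 228 with water, and for bioC of 303 and 215 with 2,4-D and 621 with water. The shift was smaller for bioD, with 871 and 735 with 2,4-D and 1061 with water, and for cre, with 3601 and 4122 with 2,4-D and 4396 with water.

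EXPA18 (AT1G62980) had signals of 7.98 and 3.55 on the 2,4-D arrays and 43.8 on the water array. Both treated signals were not above background, whereas the water signal was. Set against the background level, EXPA18 was at least 4.62-fold lower with 2,4-D. The fitted log2 change was -3.04 ± 0.87 (SE, n = 2 against 1), and limma's adjusted p of 0.0558 did not pass. A robust form of the variance trend gave 0.0451, and raising dim signals to the background level gave a change of -2.21 with an adjusted p of 0.000649, so whether EXPA18 passes turns on the variance model and on how dim signals are treated. The highest adjusted p over its limma fits was 0.374, and 2 of 7 passed, the fit with raised signals among them. In that fit both treated signals were the background levels themselves. Their spread was thus set and not measured, so its p is not read as support.

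EXPA7 (AT1G12560) had signals of 15.1 and 15.3 on the 2,4-D arrays and 37.0 on the water array, all above background. The treated arrays were almost equal, only 0.03 apart on the log2 scale, and both lay well under the water array. The signal was 2.43-fold lower with 2,4-D, a log2 change of -1.28 ± 0.56 (SE), and limma's adjusted p of 0.206 did not pass. None of the 7 fits in which EXPA7 was tested called it, and the lowest adjusted p was 0.071. The spiked controls had log2 changes of -1.34 for bioB, -1.28 for bioC, -0.41 for bioD and -0.19 for cre. Thus 2 of the 4 were about as large as that of EXPA7. What part this shift had in the lower signals of the root-hair genes, or of any other gene given below, was not tested. Only 1 water array stands behind both values.

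**Figure D1:**
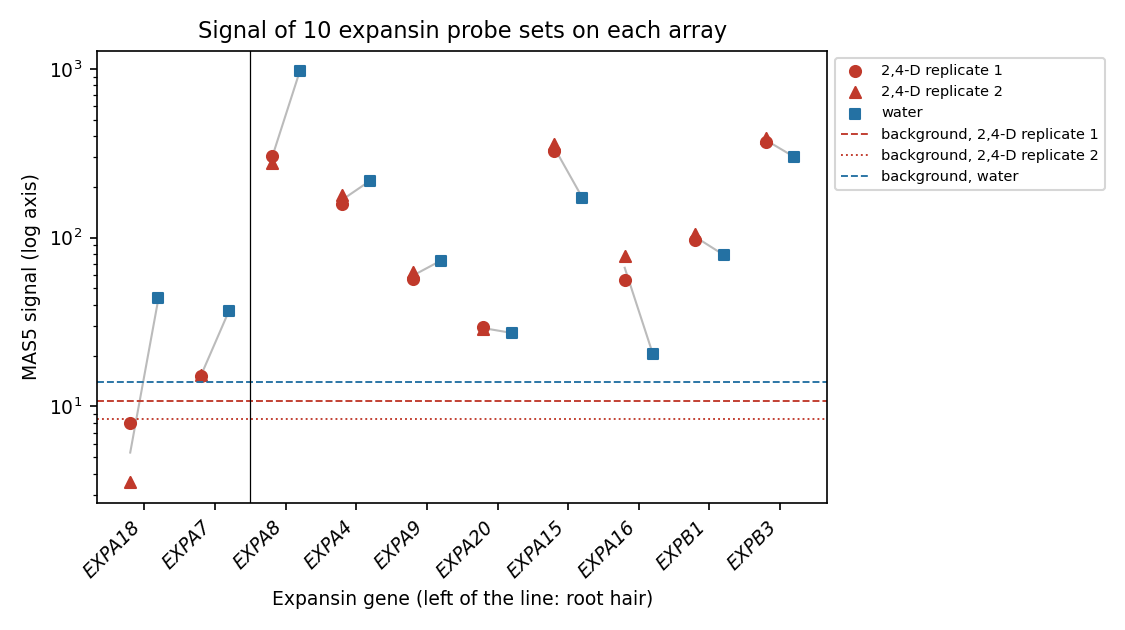
MAS5 signal (log axis) of the 10 expansin members on the 2 arrays for 2,4-D (red) and the water array (blue), with root-hair members left of the vertical line; grey lines join the geometric mean of the treated arrays to water, and dashed and dotted lines mark the background level of each array. EXPA18 lies below background on both treated arrays (7.98 and 3.55) and above it with water (43.8), and EXPA8 stands at 307 and 279 with 2,4-D against 969 with water.

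Among the 8 members not tied to root hairs, EXPA8 (AT2G40610), an alpha-expansin, fell most. Its signals were 307 and 279 with 2,4-D and 969 with water. The treated arrays lay close together, far from the water array, and all 3 signals stood well above background. EXPA8 was 3.31-fold lower, a log2 change of -1.73 ± 0.18 (SE, n = 2 against 1), with a limma adjusted p of 0.000108.

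EXPA16 (AT3G55500), another alpha-expansin, rose most. Its signals were 56.1 and 78.4 with 2,4-D and 20.4 with water, the last not far above the background level of that array. The gene was 3.26-fold higher, a log2 change of 1.70 ± 0.35 (SE), with a limma adjusted p of 0.0106. With an offset of 16 added before log2, which damps dim signals, the change was 1.18 and the adjusted p 0.0951, so the call ended.

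EXPA15 (AT2G03090), also an alpha-expansin, had signals of 328 and 359 with 2,4-D and 173 with water. It was 1.90-fold and 2.08-fold higher on the treated arrays. The log2 change of 0.99 ± 0.17 (SE) passed with a limma adjusted p of 0.00444, and the same offset ended that call narrowly (adjusted p = 0.0545) with a change of 0.93. Without the intensity trend, which reads the variance of a probe set from others of like signal, no expansin and no other probe set passed, and the lowest adjusted p over all of them was 0.371, with 1317 higher and 1653 lower at an unadjusted p under 0.05.

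The other 5 members had small changes, not all in one direction. EXPA4 (AT2G39700) had 158 and 178 with 2,4-D and 218 with water, and EXPA9 (AT5G02260) had 56.8 and 62.5 with 2,4-D and 73.2 with water. Both were lower on each treated array, with log2 changes of -0.38 ± 0.18 and -0.30 ± 0.26 that did not pass. The beta-expansin EXPB3 (AT4G28250) had 369 and 388 with 2,4-D and 301 with water. EXPB1 (AT2G20750), of the same subfamily, had 97.3 and 105 with 2,4-D and 79.2 with water. Both were higher on each treated array, by 0.33 ± 0.17 and 0.35 ± 0.22 on the log2 scale, and did not pass. EXPA20 (AT4G38210) had 29.5 and 28.7 with 2,4-D and 27.3 with water. Its change of 0.10 ± 0.45 has a 95% interval from -0.87 to 1.06, which leaves in changes of nearly 2-fold down and just over 2-fold up.

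**Figure D2:**
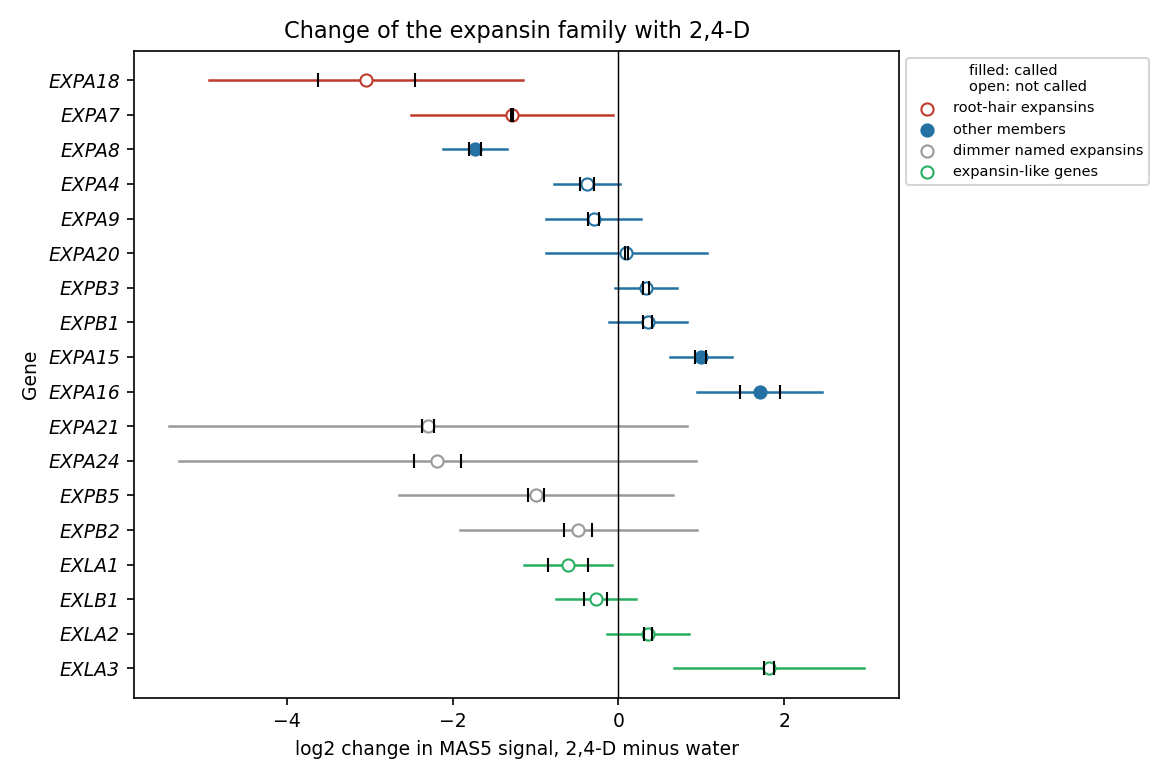
Log2 change in signal, 2,4-D minus water, for the 10 members, the 4 dimmer named expansins and the 4 expansin-like genes; circles are the fitted change (filled where limma's adjusted p is under 0.05), bars its 95% interval and black ticks the change on each treated array. The ticks of EXPA8 (-1.66 and -1.80) and of EXPA16 (1.46 and 1.95) lie on opposite sides of zero, and the bars widen for dim genes such as EXPA21 and EXPA24. The place of EXPA18 rests on treated signals not above background. EXPA21 and EXPA24 were not above background on any array, water included, so no direction is read for either.

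By limma 2 members were higher and 1 lower, 30% of the 10, beside 7.36% of all probe sets (4.24% higher and 3.12% lower). The members were kept for high signal, whereas 22.9% to 26.5% of all probe sets lay at or below background on an array. The shares are thus not matched for signal, and no greater response of expansins is read from them. By size alone 1 member (EXPA16) was at least 2-fold higher on both treated arrays, beside 5.89% of all probe sets, and 3 (EXPA18, EXPA8 and EXPA7) were at least 2-fold lower, beside 8.63%. Of these, EXPA18 is a member only through its water signal, and EXPA7 stood above the first expansin left out only through its own. This favours a lower value with 2,4-D, so nothing is read from that count. For each of the 10 members both treated arrays lay on the same side of water, 5 above it and 5 below it, which held for 78.8% of all probe sets (32.5% above and 46.3% below). The treated arrays differed by a median of 0.13 on the log2 scale for the members and 0.30 for all probe sets, again not matched for signal. The largest gap among the members was the 1.17 of EXPA18.

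Set beside the root-hair members, the 8 others had a median change of 0.21 and a range from -1.73 to 1.70. For EXPA18 only the bound of at least 4.62-fold lower is set beside them, since both its treated signals were not above background. With dim signals raised to that level its change was -2.21, outside that range but not far from the -1.73 of EXPA8. That value was set by the background levels and is not a measured size. EXPA18 is also a member only through its water signal, which favours a lower value on the treated arrays. No contrast with the 8 others is thus read from EXPA18. For EXPA7 the 95% interval ran from -2.50 to -0.07 and lay apart from those of 3 of the 8, EXPA15, EXPA16 and EXPB3. It overlapped those of the other 5, EXPA8 included. A lower signal by 2-fold or more was thus shared with a member outside root hairs. EXPA7 itself stood above the first expansin left out only through its water signal, which again favours a lower value on the treated arrays. How often such intervals lie apart among all probe sets was not tested. No contrast with the 8 others is thus read from EXPA7 either. The standard error was 0.87 for EXPA18 and 0.56 for EXPA7, against 0.17 to 0.45 for the others. These errors lean on other probe sets of like signal, and the treated arrays of EXPA7 were only 0.03 apart. They are thus not a spread measured on each gene alone.

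**Figure D3:**
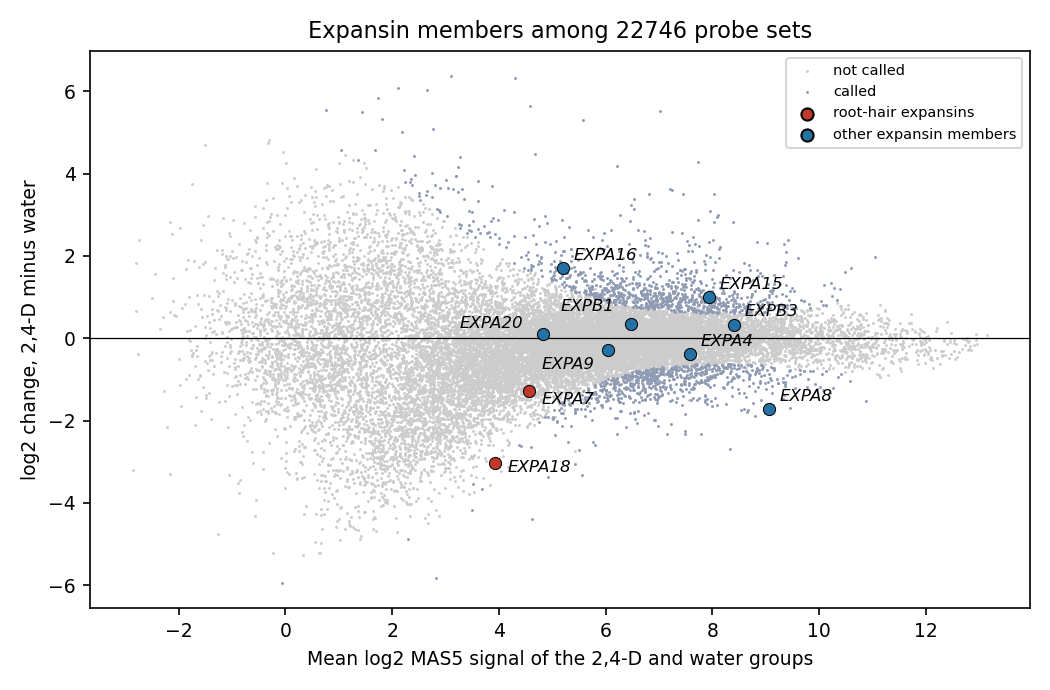
Log2 change, 2,4-D minus water, against the mean log2 signal of both groups for all 22746 probe sets (grey, darker where called), with root-hair expansins in red and the other members in blue. EXPA18 and EXPA7 sit at low signal where the cloud is wide and calls are few, whereas EXPA8 at -1.73 lies at high signal below a narrow cloud.

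Of the 4 dimmer named expansins none passed. EXPB5 (AT3G60570) had 9.25 and 10.6 with 2,4-D, the first not above background, and 19.7 with water (log2 change -0.99 ± 0.76). EXPB2 (AT1G65680) had 12.9 and 16.2 with 2,4-D and 20.2 with water. EXPB5 and EXPB2 were thus lower on both treated arrays, as were 46.3% of all probe sets. EXPA21 and EXPA24 were not above background on any array, so no fold or direction is given. They belong to a run of neighbouring expansin genes in the RefSeq table (TAIR10.1) with EXPA22, EXPA23 and EXPA25, whose probe sets carry several gene symbols and were not named.

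The expansin-like genes, relatives that share the expansin fold and have no shown wall-loosening action, gave 0 calls by limma among 4, beside 7.36% of all probe sets. At an unadjusted p under 0.05 there was 1 higher and 1 lower, beside 10.3% and 11.4% of all probe sets. EXLA3 (AT3G45960) had 35.5 and 32.8 with 2,4-D and 9.67 with water, the last not above background. It was at least 2.46-fold higher, with an adjusted p of 0.0582. Its neighbour EXLA1 (AT3G45970) had 97.3 and 69.2 with 2,4-D and 125 with water (log2 change -0.61 ± 0.25). EXLA2 and EXLB1 had changes of 0.36 ± 0.23 and -0.27 ± 0.22.

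Other genes of root hairs were set beside EXPA7 and EXPA18. Of a list of 63, only 6 had a named probe set, and limma called 0 of them. At an unadjusted p under 0.05 there were 0 higher and 1 lower, a share near the 11.4% of all probe sets that were lower by that measure. GH9C1 (AT1G48930), an endoglucanase gene of root hairs, was that gene, with 15.2 and 11.9 with 2,4-D and 46.7 with water. All 3 signals were above background, and the log2 change of -1.80 ± 0.57 had an adjusted p of 0.0815. XTH26, a xyloglucan-modifying enzyme gene of root hairs, was not above background on any array. TRY, a MYB repressor in epidermal patterning, had 17.7 and 42.2 with 2,4-D and 43.7 with water, so that its treated arrays differed widely. Genes with a part in hair growth that are also used elsewhere showed little difference. SCN1, which limits a hair cell to a single outgrowth, had 273 and 279 with 2,4-D and 279 with water. The receptor kinase gene FER had 303 and 313 with 2,4-D and 319 with water. CSLD2, for a cellulose synthase-like protein of tip growth, had 94.8 and 85.3 with 2,4-D and 82.1 with water. The median change of the 6 was -0.37, beside -0.14 for all probe sets. Their summed signal, most of it from FER and SCN1, was 704 and 732 with 2,4-D and 773 with water and says little of the dimmer genes.

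Markers of other parts of the plant were few. PYK10, a beta-glucosidase gene of the root and the single named root marker of 18 outside hair cells, had 2985 and 2439 with 2,4-D and 2240 with water. This gene was not lower on either treated array (log2 change 0.27 ± 0.30). Of 18 leaf photosynthesis genes 3 were named, LHCB4.1, LHCB4.2 and RCA, and none was called. Their summed signal was 13273 and 20422 with 2,4-D and 19971 with water, and their changes were -0.25 ± 0.49, -0.49 ± 0.39 and -0.17 ± 0.52. PYK10 and the 3 leaf genes were above background on every array. The other genes of both lists had no named probe set and were not assessed.

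Wall and growth genes outside the expansins also went both ways. Of the 10 named genes for xyloglucan-modifying enzymes, which cut and rejoin the polymers that tether cellulose, limma called 1 lower and 1 higher, beside 3.12% and 4.24% of all probe sets. XTH16 had 62.0 and 59.3 with 2,4-D and 242 with water, 3.99-fold lower (SE 0.21 on the log2 scale), and XTH32 had 507 and 488 with 2,4-D and 247 with water (1.01 ± 0.17). XTH33, with 10.7 and 13.0 with 2,4-D and 41.2 with water, XTH18, with 28.8 and 39.4 with 2,4-D and 67.2 with water, and EXGT-A3 (log2 change -0.54 ± 0.17) did not pass. Among 3 named pectin and glucan enzyme genes the endoglucanase gene GH9C2 rose, with 489 and 537 with 2,4-D and 242 with water, and GH9B5 and PME61 were dim. COB, needed for ordered cellulose deposition and the only named gene of its list, fell, with 433 and 408 with 2,4-D and 837 with water (log2 change -0.99 ± 0.18, limma adjusted p = 0.00525).

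Of 24 listed regulators of cell expansion 6 were named, of which 3 fell and 0 rose by limma, beside 3.12% and 4.24% of all probe sets. Here and for the xyloglucan-modifying enzymes the shares are not matched for signal, so no greater response is read from them. ARL, which promotes cell expansion in the brassinosteroid response, had 51.2 and 38.9 with 2,4-D and 130 with water (log2 change -1.54 ± 0.28). THE1, a receptor kinase that reads the state of the wall, had 66.0 and 65.2 with 2,4-D and 146 with water (-1.15 ± 0.22). The third was EXO, a brassinosteroid-induced growth gene, at -2.32 ± 0.28. The falls of THE1 and of COB were smaller than the changes of -1.34 for bioB and -1.28 for bioC among the spiked controls. What part that shift had in them was not tested. ANX1 and ANX2, receptor kinase genes of pollen tubes, were not above background on any array, and FER, given above, had a change of -0.05 ± 0.17. No gene of the plasma membrane proton pump list, with 11 genes, had a named probe set.

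**Figure D4:**
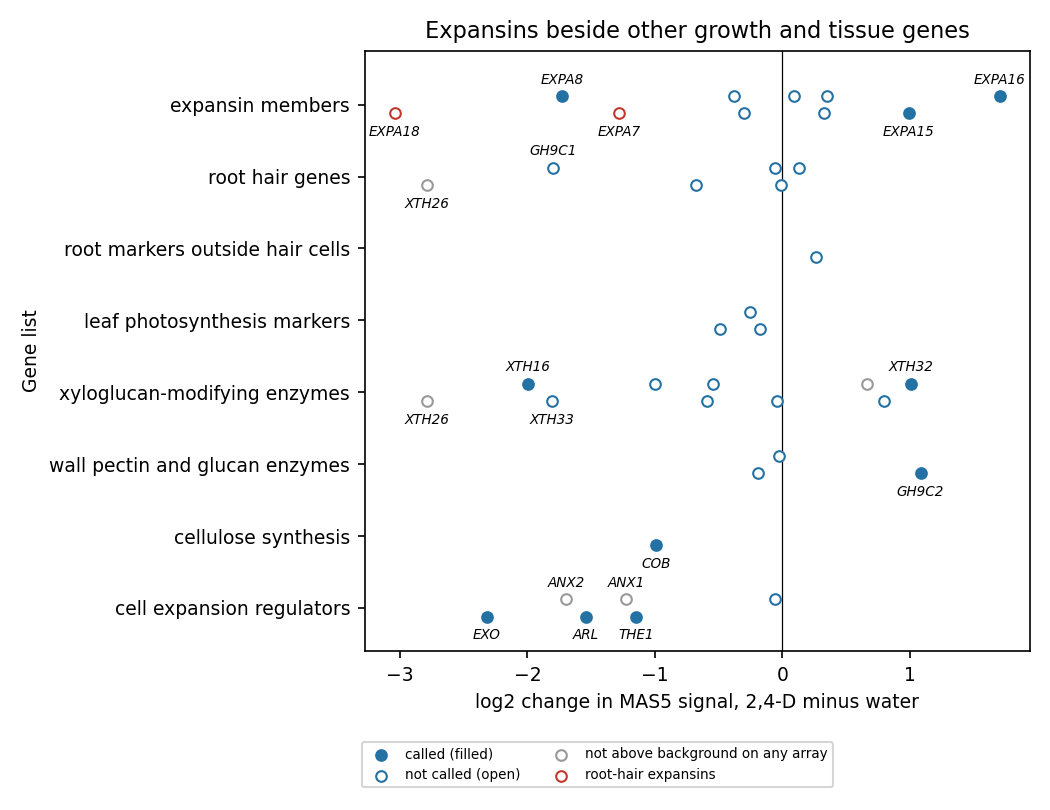
Log2 change, 2,4-D minus water, of each named gene in the expansin set and in 7 other lists; filled circles passed limma's adjusted p of 0.05, open ones did not, red marks the root-hair expansins and grey marks genes not above background on any array. Expansins and xyloglucan-modifying enzymes lie on both sides of zero, and the 3 called cell expansion regulators lie below it.

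The genes most alike in pattern were sought by the distance between pairs of log2 changes (each treated array minus water) among 5925 named probe sets (5924 for members that themselves passed this limit) with a signal above 50 on some array. With 3 arrays in all, such likeness is a description of size only. Closest to EXPA7 were AT1G59710, with 39.1 and 39.8 with 2,4-D and 95.3 with water, and AT3G12710, at distances of 0.015 and 0.019. Both passed (limma adjusted p = 0.0196 and 0.00137), with standard errors of 0.29 and 0.18 beside the 0.56 of EXPA7. For EXPA18 the distances rest on treated signals not above background, and its nearest genes are not given. EXPA8 was nearest to AT2G38240 and AT1G78260, EXPA15 to AT5G62460 and AT3G49160, and EXPA16 to AT3G27270 and AT1G68360.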

How the data were processed

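The authors deposited 1 linear MAS5 intensity for each probe set and array, per the submitters' processing notes. Not given in the sources used here: the MAS5 version, the scaling target and the genome build, so coordinates are left out. The table held 22810 probe sets, of which 64 controls were left out of the tests. Genes were named from a table pairing probe sets with genes (13513 with 1 symbol, 503 with several, 8730 unlisted) and from RefSeq TAIR10.1, which gave 13436 loci.

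Signals were taken to log2 and compared in limma 3.58.1 (R 4.3.3) by lmFit and eBayes with a variance trend over signal. The code was first run on simulated data in which all 3 arrays had the same spread. That run says nothing of the water array's own spread. All probe sets were tested, because a filter on the mean of 3 arrays favours genes that are high on the 2 treated ones. Standard errors and 95% intervals are those of this fit, and the number of arrays limits their precision. The treated arrays shared no identical value and correlated with r = 0.930 over log2 signals, against 0.911 and 0.903 with water.

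The members, lists and tests were chosen with earlier results of these data known. All 10 members were named. From each list every called gene, the 4 largest changes and the 2 brightest uncalled genes were named, with a few further list members given in passing, and the 2 nearest genes in pattern for 4 of 5 members, those of EXPA18 being left out. Alternatives were other scalings, an offset, filters, other variance models and single treated arrays; raising dim signals to background was added after seeing the data.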

Additional observations from a re-analysis of the deposited data

How the results depend on the processing

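No expansin member changed direction under any alternative run, but for most alternatives this was fixed in advance. Filters and other variance models keep the log2 change as it was. An offset or a single treated array cannot turn it where both treated arrays lie on the same side of water. Only the scalings and raised dim signals could have done so. Of 95 values of members under all the alternatives, 5 lost a call and 2 gained one. The other 88 say little of stability. A value from a single treated array lies within the spread of the pair by construction, and 7 members had no call to lose. An offset before log2 gave 199 probe sets higher and 104 lower, 0 members called higher, and 332 and 273 probe sets at least 2-fold higher and lower on both arrays, with 0 members among the higher. Without the intensity trend 0 probe sets and 0 members were called by limma either way, with 5 members at an unadjusted p under 0.05. EXPA8 (adjusted p = 0.371), EXPA15 (0.378) and EXPA16 (0.374) lost their calls there, and the cause was not tested. The filter on mean signal, which left 8 members, called 1472 higher and 1434 lower. It left 519 and 429 at least 2-fold higher and lower, with 1 member at least 2-fold lower. The filter on group signal, which left 7, called 1317 higher and 1312 lower. It left 440 and 385 at least 2-fold higher and lower, with 1 member at least 2-fold lower. Both filters test fewer probe sets and leave out EXPA7 and EXPA18. Raising dim signals to background called 1287 higher and 1380 lower, with 524 and 802 at least 2-fold higher and lower. It called 2 members lower, and the robust trend also called 2 lower, in both cases by adding EXPA18. With raised signals the treated spread of EXPA18 was set by the background levels, so nothing is read from that call. Scaling to one median gave 2 members at least 2-fold higher, by adding EXPA15. With 1 treated array left out, counts at 2-fold were 2167 to 2201 probe sets higher and 3440 to 3761 lower, and 1 to 2 members higher. The second of these was EXPA15, without 2,4-D replicate 1. No paired analysis was possible because the groups share only 1 replicate number. Signal over background limits EXPA18, EXPA7 and the dimmer expansins, and no second water array gives its own spread.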
